A study of Mus musculus with 18 samples.

Results

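Streak cells with and without Foxa2 transcripts were compared in C57BL/6 wild-type mouse embryos at embryonic day (E) 6.75. Cells of the primitive streak were taken as those with at least 1 transcript of T (Brachyury), no transcript of Mesp1 and fewer than 5 transcripts of Ttr, Apoa1 and Spink1 together per 10000, in cells of at least 2000 transcripts. Of 576 E6.75 cells, 543 reached that depth and 116 met the rule, 44 with Foxa2 and 72 without. A library entered the comparison when it held at least 3 cells on each side, which left 5 of the 6 E6.75 libraries with 101 cells, 43 Foxa2-positive and 58 Foxa2-negative. The whole series held 1728 cells in 18 libraries.

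The E6.75 cells came from untreated embryos that were freed of their extraembryonic part, dissociated 1 embryo at a time and picked by hand. They were sequenced by CEL-Seq2, a plate method that counts molecules at their 3′ end by random tags (UMIs), so a level does not depend on transcript length. E7.5 cells of the same strain came from embryos of 1 or 2 litters pooled, were sorted by flow cytometry and were sequenced by mCEL-Seq2, a miniaturized form. Which embryo a cell came from is not given, so a p-value over libraries measures the spread between libraries, which may share embryos.

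The primitive streak is where epiblast cells leave the epithelium to form mesoderm and definitive endoderm. T, a T-box transcription factor, marks the streak and later the notochord. Foxa2, a forkhead transcription factor, marks the anterior streak, from which definitive endoderm and axial mesoderm arise, while Mesp1 marks nascent mesoderm. NODAL signalling through its co-receptor Tdgf1 (Cripto) and WNT signalling are both required for the streak to form.

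The Foxa2-positive side held 3, 6, 18, 9 and 7 cells in libraries 1_10, 2_12, 2_13, 2_14 and 2_9. The Foxa2-negative side held 6, 9, 12, 24 and 7 cells in the same order. Library 1_11 had 1 Foxa2-positive and 14 Foxa2-negative cells and was left out. Foxa2 was therefore detected in 37.9% of the 116 streak cells (exact 95% binomial interval 29.1% to 47.4%), and from 6.67% to 60% by library. In the 332 T-negative cells that passed the same filters it was detected in 10.5% (7.45% to 14.4%). Median depth was 54723 transcripts in the streak cells and 34681 in the T-negative cells. Cells of at least 10000 transcripts, 105 and 257 of these, were also thinned to 10000, and the shares were then 24.8% (16.9% to 34.1%) and 4.28% (2.16% to 7.53%). Of the 48 cells left out by Ttr, Apoa1 and Spink1, visceral endoderm genes, 72.9% had Foxa2, which visceral endoderm also expresses. Intervals cover counting error only.

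Foxa2, Mesp1, Ttr, Apoa1 and Spink1 chose the cells and were not tested. T also chose the cells. It stayed in the fits of streak cells, but its level is described without its test result. The Foxa2-positive cells had a median of 4 Foxa2 transcripts and at most 84. Of these 43 cells, 9 held a single Foxa2 transcript, the value just inside the threshold, and the 58 cells just outside it held 0. For T, 43 of the 101 cells held a single transcript and 261 otherwise matching cells held none. The highest visceral endoderm sum kept was 3.07 per 10000. Only 3 T-positive, Mesp1-negative cells were left out, the lowest at 57.9, so the limit fell in a wide gap.

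T was required on both sides, and its level still varied. T stood at 99.4, 114, 186, 217 and 41.0 CPM (counts scaled to the summed transcripts of a side) in the Foxa2-positive sums of libraries 1_10, 2_12, 2_13, 2_14 and 2_9. The Foxa2-negative sums held 77.8, 61.9, 37.9, 117 and 60.2 CPM. T was thus higher on the Foxa2-positive side in 4 of 5 libraries and lower in 2_9. In single cells, 10 or more T transcripts were found in 13 of 43 Foxa2-positive cells and in 4 of 58 Foxa2-negative cells, whose median depths were 67623 and 76052 transcripts. Mixl1, a homeobox gene of the streak, was detected in all 17 of these cells.

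**Figure D1:**
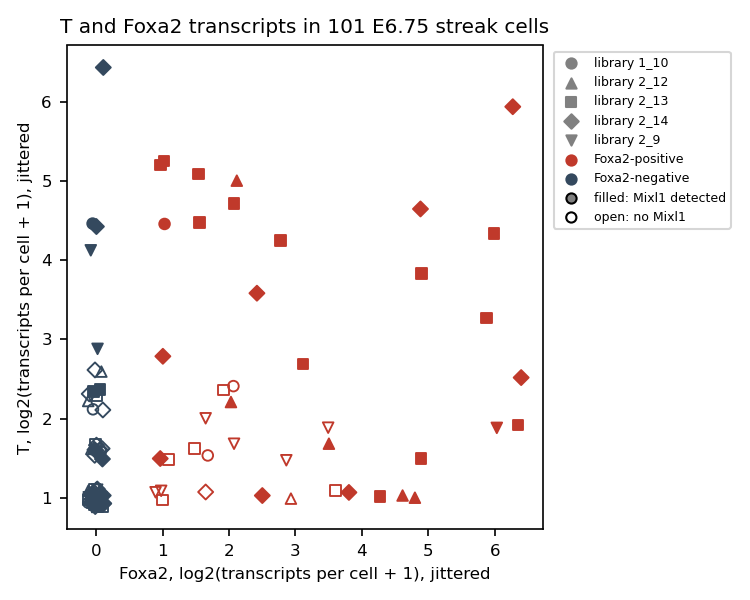
Each point is 1 of the 101 streak cells, placed by log2(transcripts + 1) of Foxa2 (horizontal) and T (vertical) with a small jitter. Marker shape gives the library, colour the side and filling the detection of Mixl1. The 17 cells with 10 or more T transcripts are all filled, whatever their Foxa2.

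The sides also differed in depth. Median depth was 67623 transcripts per cell on the Foxa2-positive side (5125 to 120956) and 51030 on the Foxa2-negative side (2024 to 116608). Mean log2 depth differed by 0.51 (SD 0.54, n = 5 libraries), being higher on the Foxa2-positive side in 4 of 5 libraries and lower in 2_9. The two-sided exact sign-flip test gave p = 0.188, where 5 libraries allow no p below 0.0625. The mitochondrial share of transcripts was 13.5% ± 3.42 (SD, n = 5) against 16.1% ± 3.39, lower on the Foxa2-positive side in 4 of 5 libraries (exact sign-flip p = 0.125). A deeper cell is more likely to show a Foxa2 transcript, and the part of depth in the results below was not tested. All E6.75 libraries held between 2933395 and 5493791 nuclear transcripts.

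**Figure D2:**
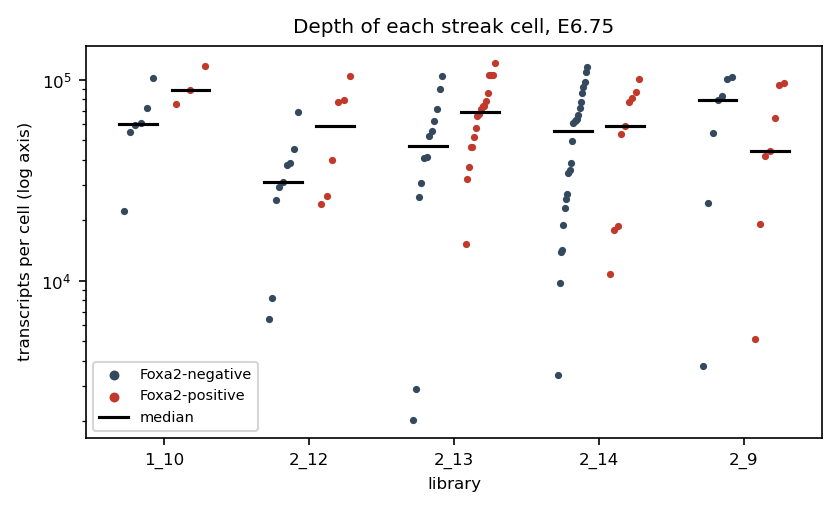
Transcripts per streak cell (log axis) by library, with Foxa2-negative cells in dark blue, Foxa2-positive cells in red and a bar at each median. The Foxa2-positive median lies above the Foxa2-negative one in every library shown except 2_9.

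The transcripts of each side were summed per library, so that more expressing cells and more RNA per cell cannot be told apart in a sum, and fitted with the library as a block (edgeR quasi-likelihood test, Benjamini-Hochberg adjustment over 5693 genes). At an adjusted p under 0.05, 3 genes were called, or 0.0527% of those tested, and all 3 were higher in Foxa2-positive cells. These were Apln, Amot and Tdgf1, and each was higher in 5 of 5 libraries. DESeq2 called the same 3 genes. No gene was called lower by edgeR or by DESeq2, while edgeR gave 222 genes with a negative fold change and 174 with a positive one an unadjusted p under 0.05, together 6.96% of those tested. Other choices of cells or libraries also called lower genes, with 16 higher and 24 lower without cells holding Ttr, Apoa1 or Spink1 (3 libraries), 12 and 12 at 2 or more Foxa2 transcripts (4 libraries), and 15 and 12 without library 2_9.

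Apln encodes apelin, the secreted ligand of the apelin receptor, and lies on the X chromosome (GRCm38, X, 48025146 to 48034853, minus strand). Its level in Foxa2-positive sums was 74.6, 142, 99.9, 132 and 16.4 CPM in libraries 1_10, 2_12, 2_13, 2_14 and 2_9. In Foxa2-negative sums it was 18.8, 30.9, 31.0, 69.7 and 6.68 CPM. Library 2_9 was low on both sides, with 6 and 3 transcripts, 5 of the 6 from 1 cell. Library 2_14 was high on both, so the sides overlapped between libraries but not within any. The log2 fold change of Apln was 1.45 (SE 0.215, edgeR adjusted p = 0.00181). Aplnr, the gene of the apelin receptor, stood at 1.74 ± 3.46 CPM (SD, n = 5) on the Foxa2-positive side and 0.846 ± 1.49 CPM on the other, too low to be tested.

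Amot encodes angiomotin, a scaffold protein of cell junctions that binds the transcriptional co-activator YAP, and also lies on the X chromosome (GRCm38, X, 145446425 to 145505181, minus strand). It stood at 153, 85.2, 68.5, 181 and 84.7 CPM in the Foxa2-positive sums of the 5 libraries in the same order. The Foxa2-negative sums held 40.3, 30.9, 48.3, 70.5 and 15.6 CPM. The lowest Foxa2-positive value, in 2_13, lay just below the highest Foxa2-negative value, in 2_14. The log2 fold change was 1.37 (SE 0.208, edgeR adjusted p = 0.00181). The related angiomotin-like genes, named after their values were seen, did not pass. Amotl1 had a log2 fold change of −0.47 and Amotl2 one of −0.36, with edgeR adjusted p of 0.707 and 0.452. Yap1 itself had one of 0.16 (adjusted p = 0.877).

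Tdgf1 encodes the GPI-anchored co-receptor of NODAL (GRCm38, 9, 110939603 to 110946158, minus strand). It was abundant, at 703, 514, 470, 773 and 448 CPM in the Foxa2-positive sums and 443, 320, 335, 410 and 377 CPM in the Foxa2-negative sums. Every Foxa2-positive value of the 5 tested libraries lay above every Foxa2-negative one. The Foxa2-negative cells of library 1_11, which entered no test, held 513 CPM. The log2 fold change of Tdgf1 was the smallest of the 3 at 0.60 (SE 0.0958, edgeR adjusted p = 0.00258). Detection in thinned cells was nearly the same on both sides, 40 of 42 and 46 of 51, while the summed level differed.

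**Figure D3:**
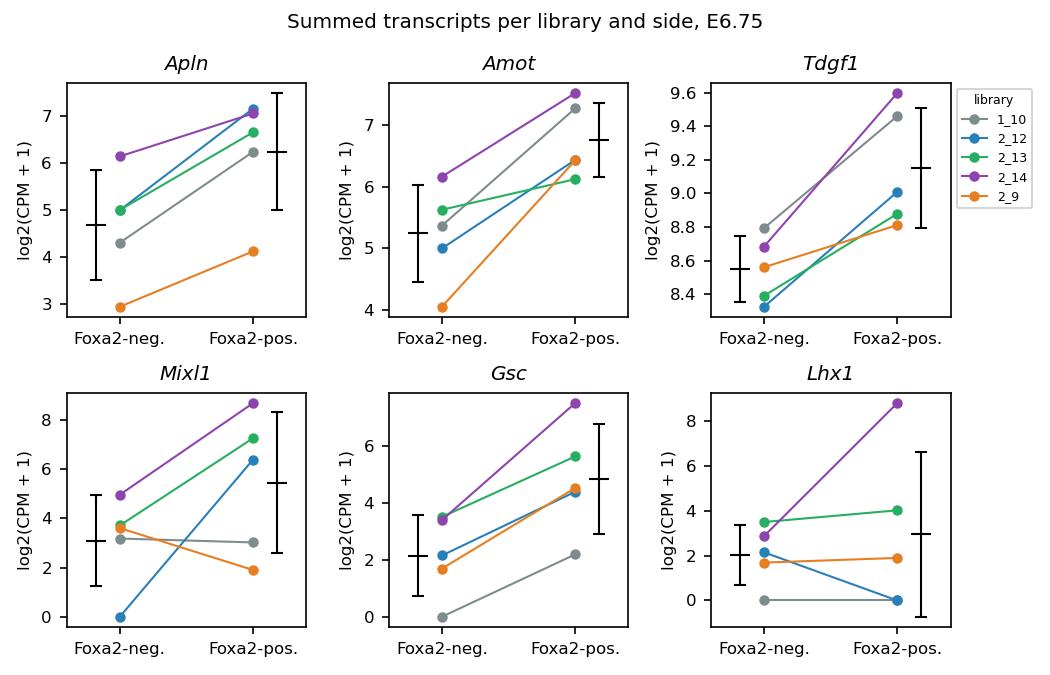
log2(CPM + 1) of 6 genes in the Foxa2-negative and Foxa2-positive sums of each library, joined by library, with the mean and SD over 5 libraries beside each side (the vertical scales differ). Apln, Amot, Tdgf1 and Gsc are higher on the Foxa2-positive side in every library, Mixl1 in 3, and Lhx1 stands out in 2_14 alone.

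These 3 calls changed with the cells that entered. With cells that hold Mesp1 kept, the log2 fold changes of Apln, Amot and Tdgf1 fell to 0.78, 0.62 and 0.18, with edgeR adjusted p of 0.417, 0.569 and 0.999. Without library 2_14 only Apln passed (log2 1.84, edgeR adjusted p = 0.00186), and Amot and Tdgf1 had log2 fold changes of 1.39 and 0.51 (adjusted p = 0.0517 and 0.142). With very deep cells removed (over 3 times the median), 4 libraries remained, the log2 fold changes were 1.46, 1.12 and 0.56, and the edgeR adjusted p were 0.0737, 0.148 and 0.438. Over 25, 25 and 26 alternatives the 3 genes passed in 22, 21 and 20, with adjusted p from 1.12e-07, 3.08e-08 and 2.28e-05 up to 0.9998, the highest without the library block. No alternative reversed their direction. Among these alternatives, libraries with title prefix 2 only and without library 1_10 are the same fit, counted under both names.

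Because Apln and Amot are X-linked, the sex markers of the cells are given beside them. Xist, the RNA of the inactive X chromosome, was 22.8 ± 26.7 CPM in Foxa2-positive and 65.8 ± 46.7 CPM in Foxa2-negative sums, and was lower on the Foxa2-positive side in 5 of 5 libraries. Its log2 fold change was −1.35 (edgeR adjusted p = 0.217). Xist was detected in 15 of 43 and 18 of 58 cells. The Y-linked genes Ddx3y and Eif2s3y had log2 fold changes of −0.20 and −0.20. When every cell with an Xist transcript was left out, the log2 fold changes of Apln and Amot were 1.58 and 1.58 (edgeR adjusted p = 0.00118 for both).

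The upstream sequences of Apln and Tdgf1 are shown because these genes passed the test. They are the 250 bases before the RefSeq start, 5′ to 3′ on the gene's strand, from RefSeq on GRCm38.p6, with CpG dinucleotides in capitals. Apln is chrX:48034854-48035103 and Tdgf1 is chr9:110946159-110946408, both on the minus strand.
Apln: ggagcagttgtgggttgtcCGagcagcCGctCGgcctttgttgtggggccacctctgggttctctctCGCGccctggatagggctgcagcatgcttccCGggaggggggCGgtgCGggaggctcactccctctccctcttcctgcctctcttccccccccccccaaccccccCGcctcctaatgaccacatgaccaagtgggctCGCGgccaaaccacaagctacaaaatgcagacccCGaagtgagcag
Tdgf1: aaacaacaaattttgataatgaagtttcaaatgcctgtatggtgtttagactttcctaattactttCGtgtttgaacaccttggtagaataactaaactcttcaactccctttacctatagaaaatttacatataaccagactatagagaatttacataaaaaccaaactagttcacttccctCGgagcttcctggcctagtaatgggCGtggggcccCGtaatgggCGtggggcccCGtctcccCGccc
The Apln window holds 12 CpG dinucleotides and 65.2% G and C, the Tdgf1 window 7 and 42.0%, and the Amot window 3 and 44.8%. The Amot window (chrX:145487640-145487889, minus strand) lies before a RefSeq start inside the gene span given above. The sequence upstream of the whole Amot span was not searched. The median over 32851 RefSeq promoter windows of this length was 6 CpG dinucleotides (quartiles 2 and 16). The letters TGTTTAC (a forkhead motif), AGGTGTGA (a T-box motif) and CTTTGAT (a TCF/LEF motif) were searched on both strands. None of the 3 windows holds any of them, against 3.17%, 1.12% and 3.21% of all windows. That says only that these letters are not in these windows.

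Several organizer genes lay below the filter on low counts, since a few libraries held most of their transcripts. An added fit that kept genes with at least 10 transcripts in at least 2 sums tested 8336 genes and called 8 (0.096%). They were Apln, Amot and Tdgf1 again with Mixl1, Gsc, Lhx1, Cyp26a1 and Bmp7. These 5 genes were named after their values were seen. Each reached 10 transcripts in at most 1 Foxa2-negative sum, so it entered only through the Foxa2-positive side and had to be higher there. Their values are therefore given as a description, with no test.

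Mixl1 stood at 7.10, 82.4, 151, 408 and 2.73 CPM in Foxa2-positive sums and at 8.05, 0, 12.1, 30.1 and 11.1 CPM in Foxa2-negative sums. It was high in 2_12, 2_13 and 2_14 and lower on the Foxa2-positive side in 1_10 and 2_9. Its log2 fold change was 3.39. After thinning to 10000 transcripts Mixl1 was found in 19 of 42 Foxa2-positive cells and 9 of 51 Foxa2-negative cells. With Mesp1-bearing cells kept the log2 fold change was 0.30.

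Gsc, a homeobox gene of the organizer, was 3.55, 19.9, 48.3, 179 and 21.9 CPM in Foxa2-positive sums and 0, 3.44, 10.3, 9.50 and 2.23 CPM in Foxa2-negative sums. It was higher in 5 of 5 libraries and far highest in 2_14. The log2 fold change was 3.47. With Mesp1-bearing cells kept, its log2 fold change was 1.75.

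Lhx1, a LIM homeobox gene of the anterior streak, rested on 1 cell. Foxa2-positive sums held 0, 0, 15.3, 450 and 2.73 CPM of Lhx1. Of its 248 transcripts in Foxa2-positive cells, 218 came from a single cell of library 2_14, which also held 73 Foxa2, 58 T, 155 Mixl1, 65 Gsc and 89 Cyp26a1 transcripts. Without that cell the log2 fold change fell from 4.60 to 0.97 for Lhx1 and from 3.99 to 2.16 for Cyp26a1, which encodes a retinoic acid-degrading enzyme. Mixl1 and Gsc had log2 fold changes of 2.43 and 2.57 without it. Bmp7 lost its place among the genes tested. Lhx1 had at most 2 transcripts in any Foxa2-negative cell. Of the 176 Cyp26a1 transcripts in Foxa2-positive cells, a further 42 came from 1 cell of library 2_13. That cell also held 35 Elf5, 17 Wnt7b and 72 Tfap2c transcripts, markers of extraembryonic ectoderm.

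Foxa2 level and the organizer genes were laid out by cell, as a description. Among cells with 0, 1, 2 to 4, 5 to 20 and over 20 Foxa2 transcripts there were 58, 9, 13, 10 and 11 cells, from 4 or 5 libraries each. Mixl1 was detected in 31.0%, 55.6%, 46.2%, 60% and 100% of them, and Gsc in 24.1%, 33.3%, 46.2%, 70% and 90.9%. Chrd, which encodes the BMP antagonist chordin, was detected in 5 of the 58 Foxa2-negative cells and in 7 of the 11 cells with over 20 Foxa2 transcripts. Median depths of the 5 tiers were 51030, 71553, 78831, 44231 and 65800 transcripts. The tier without Foxa2 was shallower than every other tier but that of 5 to 20 transcripts, and the part of depth in these shares was not tested. Lhx1 was detected in 24.1%, 44.4%, 23.1%, 20% and 45.5%. The libraries were spread unevenly over the tiers. Most cells with over 20 Foxa2 transcripts came from libraries 2_13 and 2_14, and no cell of library 1_10 held more than 3. The part of the library in these shares was not tested.

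The list of 15 anterior streak and organizer genes had 4 members above the filter, of which 0 passed, with 3 above zero and a median log2 fold change of 0.69, against −0.000545 over all genes tested. Fst, which encodes follistatin, an antagonist of activin and BMPs, reached a log2 value of 0.85 with an SE of 0.187 (edgeR adjusted p = 0.0683). It stood at 196 ± 93.8 CPM (SD, n = 5) against 112 ± 46.4 CPM and was lower on the Foxa2-positive side in 1_10. Eomes, a T-box factor required for definitive endoderm, stood at 516 ± 264 and 348 ± 62.7 CPM (log2 0.52, adjusted p = 0.360). In Foxa2-positive sums Eomes was 765 CPM in both 2_13 and 2_14 and 199 CPM in 1_10. Otx2 had a log2 fold change of −0.10 (adjusted p = 0.934).

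Definitive endoderm genes lay mostly below the filter on both sides. Of the 13 listed genes only Trh was abundant enough to test (log2 −0.02, edgeR adjusted p = 0.997). Sox17 had a transcript in 3 of 43 Foxa2-positive and 0 of 58 Foxa2-negative cells, and Foxa1 in 9 and 2. Cer1, a secreted NODAL antagonist, was found in 3 and 0 cells. Of the 8 node and notochord genes none could be tested, and Noto and Shh had no transcript in any of the 101 cells.

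Among 18 posterior streak and nascent mesoderm genes, 3 could be tested and 0 passed (median log2 −0.12). Fgf8, a ligand needed for cells to leave the streak, had a log2 fold change of 0.30 (edgeR adjusted p = 0.835). Lefty2, a feedback inhibitor of NODAL, had −0.66 (adjusted p = 0.631), and Evx1, a homeobox gene of the posterior streak, −0.12 (adjusted p = 0.982).

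In the NODAL pathway 1 of 10 tested genes passed, Tdgf1, and the median of the 10 was −0.10. The ligand gene Nodal had a log2 fold change of 0.10 (edgeR adjusted p = 0.971), the receptor gene Acvr2b −0.11 (0.960), and the transducer genes Smad2 and Smad4 −0.01 and −0.10 (0.999 and 0.965). Foxh1, the forkhead partner of the SMADs, was below the filter at 13.8 ± 4.06 against 9.18 ± 2.31 CPM, and was higher in 5 of 5 libraries.

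In the WNT pathway 0 of 13 tested genes passed, with a median of 0.15. The ligand gene Wnt3, needed for streak formation, had a log2 fold change of 0.85 (edgeR adjusted p = 0.381). The receptor gene Fzd2 had 0.69 (SE 0.152, adjusted p = 0.0683) and was higher in 5 of 5 libraries, at 146 ± 17.9 against 90.1 ± 15.1 CPM. The target gene Axin2 had 0.78 (adjusted p = 0.217) and was also higher in 5 of 5. Lgr4, a receptor for R-spondins, had −0.85 (adjusted p = 0.349) and was lower in 5 of 5. Ctnnb1, encoding beta-catenin, had 0.15 (adjusted p = 0.730). Outside the list, Dact1, an intracellular WNT modulator named after its value was seen, had 0.91 (adjusted p = 0.0683).

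In the BMP pathway 0 of 7 tested genes passed (median −0.08). The target gene Id3 had a log2 fold change of −0.36 (edgeR adjusted p = 0.418) and Id1 −0.51 (0.802). In the FGF pathway 0 of 12 passed (median 0.09). The ligand gene Fgf5 had 0.41 (adjusted p = 0.450), the receptor gene Fgfr1 −0.09 (0.971) and the feedback genes Dusp6 and Spry4 0.34 and 0.27 (0.552 and 0.878).

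Of 19 epiblast and pluripotency genes 17 were tested and 1 passed, again Tdgf1, while the median of the 17 was −0.13 and 5 lay above zero. Pou3f1 (Oct6), a POU factor of the late epiblast, had the lowest value. It stood at 160, 179, 188, 47.3 and 216 CPM on the Foxa2-positive side and at 145, 323, 309, 165 and 316 CPM on the Foxa2-negative side. It was lower in 4 of 5 libraries, the exception being 1_10, and its log2 fold change was −0.76 (SE 0.156, edgeR adjusted p = 0.0683). Pou5f1, Nanog, Sox2 and Dnmt3b had log2 fold changes of 0.02, −0.20, −0.13 and −0.13, with adjusted p from 0.816 to 0.987. The 4 libraries whose titles begin with 2, tested alone, called 14 genes. They included Pou3f1 at −0.90, Fst at 1.13 and Eomes at 0.72, with edgeR adjusted p of 0.00498, 0.000329 and 0.0133. Without library 2_9, 27 genes were called, among them Pou3f1 (−0.82), Fst (0.90), Eomes (0.65), Fzd2 (0.75) and Dact1 (0.89), with edgeR adjusted p of 0.00876, 0.00754, 0.0259, 0.0200 and 0.0471. T, which chose the cells, was also among the 27. Gm42418 (−0.70, adjusted p = 2.84e-06) and Lars2 (−0.64, adjusted p = 0.00235), loci known to collect ribosomal RNA reads, were lower there, and the part of RNA quality was not tested. The metallothionein genes Mt1 and Mt2 fell there by 1.04 and 1.11 on the log2 scale (adjusted p = 0.00392 and 0.00980).

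Genes of epithelial and mesenchymal cells showed no call, 0 of 10 (median −0.16) and 0 of 6 (median −0.11). Cdh1, encoding E-cadherin, had a log2 fold change of −0.09 (edgeR adjusted p = 0.942), Epcam −0.30 (0.654), and Vim and Fn1 −0.10 and −0.13 (0.982 and 0.965). Sparc, a matrix protein gene, had −0.50 (adjusted p = 0.217) and was lower in 5 of 5 libraries. Among cell cycle genes, 14 of 16 G2 and M phase genes lay above zero (median 0.15, 0 called) and 4 of 15 S phase genes did (median −0.13, 0 called), against 49.8% of all tested genes.

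**Figure D4:**
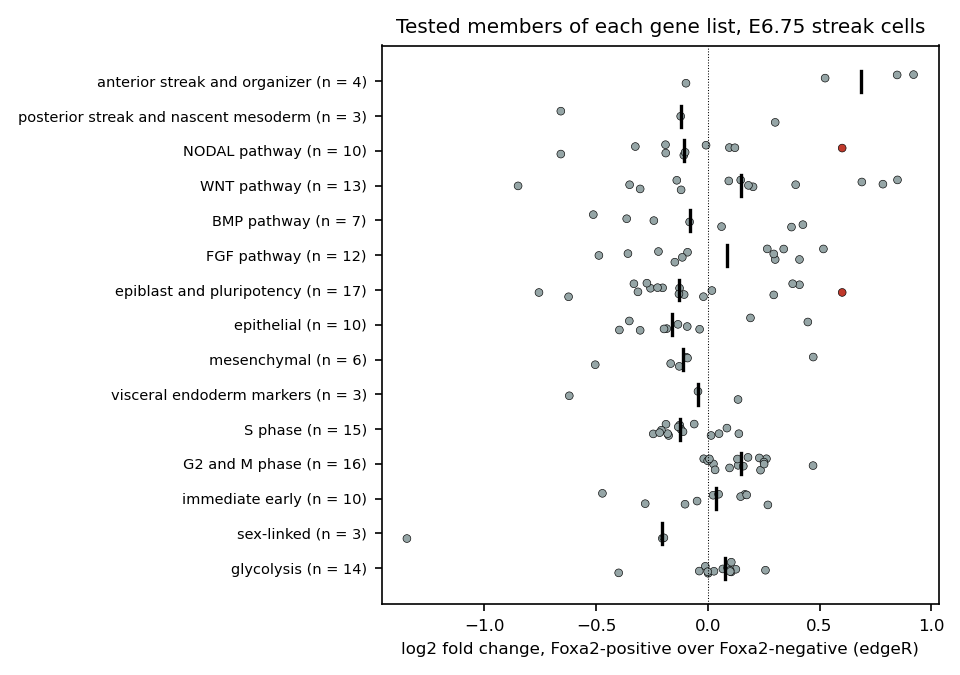
log2 fold change of each tested member of the lists with at least 3 tested genes (points) with the list's median (bar), Foxa2-positive over Foxa2-negative. Red marks an edgeR adjusted p under 0.05, which only Tdgf1 has, shown in both of its lists.

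Markers of other cell types were low and alike on both sides. The summed level of 16 visceral endoderm markers, without the 3 used by the rule, ranged from 264 to 317 CPM in Foxa2-positive and from 267 to 362 CPM in Foxa2-negative sums. Most of it was Apoe and Ctsl, which many cells express. Amn, Apoa4, Spp2 and Fgb were at 0 on the Foxa2-positive side and Afp, Cldn2 and Spp2 on the Foxa2-negative side. The 10 extraembryonic ectoderm markers ranged from 426 to 602 CPM and from 401 to 691 CPM, mostly Bex1, with Plac1 at 0 on both sides. On each side 1 cell held 5 or more Elf5, Wnt7b and Tfap2c transcripts per 10000. Without both cells 4 genes were called, Apln, Amot, Tdgf1 and Pou3f1 (−0.81, edgeR adjusted p = 0.0234). The 9 blood and endothelial markers stayed at or below 25.6 and 31.0 CPM, and the 8 neural ectoderm markers at or below 17.8 and 10.3 CPM.

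The same contrast was fitted in T-negative cells of the 5 libraries (33 with Foxa2 and 228 without), with an interaction term. Of 6771 genes 0 passed the interaction (0%) in edgeR, with 250 (3.69%) at an unadjusted p under 0.05, and 0 passed in DESeq2, with 201. Apln was 13.6 ± 12.5 CPM in T-negative cells with Foxa2 and 8.21 ± 3.30 CPM in those without, below the 93.0 ± 50.5 and 31.4 ± 23.6 CPM of the streak cells. Tdgf1 was 278 ± 42.2 and 234 ± 56.7 CPM there, and Amot 78.5 ± 69.3 and 52.8 ± 9.23 CPM. Their interaction terms were 0.64, 0.29 and 1.19 on the log2 scale, each with an edgeR adjusted p of 1. In T-negative cells of library 1_10 Amot was 201 CPM with Foxa2, from 3 cells, and 68.7 CPM without. Amot was 67.6 against 51.4 CPM in 2_12 and was lower with Foxa2 in 2_13, 2_14 and 2_9. The T-negative cells with Foxa2 had a median depth of 53610 transcripts and a median of 1 Foxa2 transcript. They were shallower than the Foxa2-positive streak cells (67623) but deeper than the T-negative cells without Foxa2 (31973).

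The same rule found 30 Foxa2-positive and 97 Foxa2-negative streak cells in 5 E7.5 libraries. Stage, cell collection and protocol changed together and cannot be told apart. T was higher there, at a median of 33.5 transcripts in Foxa2-positive cells and 3 in Foxa2-negative ones, against 3 and 1 at E6.75. Of 6104 genes 69 were called by edgeR (1.13%), 51 higher (0.836%) and 18 lower (0.295%) in Foxa2-positive cells, and 9.99% had an unadjusted p under 0.05. T, which chose the cells, was among the 51 higher genes.

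Several genes at E7.5 were near 0 on one side and passed the filter through the other, and they are described by level. Foxa1, a definitive endoderm gene, was 90.6, 85.3, 234, 40.8 and 55.9 CPM in the Foxa2-positive sums of libraries 1, 2, 3, 4 and 7 and at most 1.92 CPM in Foxa2-negative sums. Sox17, also of definitive endoderm, was 69.7 ± 42.4 CPM (SD, n = 5) against 4.04 ± 3.34 CPM, and Cer1 276 ± 150 against 8.18 ± 15.3 CPM. Genes of the node and notochord were high on the same side. Foxj1, a regulator of motile cilia, was 384, 339, 837, 449 and 7.62 CPM against 3.91, 5.26, 17.1, 13.9 and 0 CPM. Chrd was 159 ± 122 against 3.86 ± 4.73 CPM and Noto, a notochord homeobox gene, 60.4 ± 55.8 against 0.421 ± 0.942 CPM. Library 7 was the lowest for all 3, with Noto at 0. Foxj1, Chrd and Noto were not among the genes tested. The cilium genes Ift74, Ift81, Kif3a and Rfx3, named after their values were seen, were called higher, with log2 fold changes of 1.20, 1.84, 1.38 and 1.80 (edgeR adjusted p = 0.0110, 0.00547, 0.0295 and 0.0214). Of 18 posterior streak and nascent mesoderm genes 11 were tested at E7.5, with 3 of the 11 above zero and a median of −0.71. Hand1 and Pdgfra passed the filter mostly through Foxa2-negative sums, so they too are described by level. Hand1 was 10.1 CPM on average in Foxa2-positive and 203 CPM in Foxa2-negative sums, and Pdgfra 19.9 and 79.9 CPM. The summed extraembryonic ectoderm markers, which include Hand1, were 251 to 417 CPM in Foxa2-positive and 477 to 1285 CPM in Foxa2-negative sums and lower with Foxa2 in 5 of 5 libraries, and their part was not tested. Apln had 0.83 (SE 0.200, adjusted p = 0.0587) at E7.5 and Amot −0.28 (SE 0.223, adjusted p = 0.766).

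An interaction of the Foxa2 contrast with stage was called for 20 of 6776 genes (0.295%), 4 with a contrast more positive at E6.75 (0.059%) and 16 with one more negative (0.236%), while 7.82% had an unadjusted p under 0.05. The 5 with the largest difference were Cdh11 (4.26), Capsl (−3.95), Cyb561 (−3.66), Arl4a (−2.97) and Lrp2 (2.75) on the log2 scale, E6.75 minus E7.5. Cdh11, Capsl and Cyb561 were below the filter at E6.75 alone and entered the fit with their E7.5 sums, so their differences are given as a description. Cdh11 encodes a mesenchymal cadherin and Lrp2 the endocytic receptor megalin. Cdh11 was 17.0 against 88.3 CPM in Foxa2-positive and Foxa2-negative sums at E7.5 and 16.9 ± 26.2 against 6.08 ± 5.03 CPM at E6.75. Without the Lhx1-rich cell or without library 2_14 its adjusted p rose to 0.120 and 0.516.

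Amot was among the 4 (1.64, SE 0.327, edgeR adjusted p = 0.0194), being higher with Foxa2 at E6.75 and 122 against 147 CPM at E7.5. It passed in 17 of 29 alternatives, with adjusted p from 9.87e-06 to 0.791, and without library 1_10, library 2_14 or the Lhx1-rich cell it had 0.0583, 0.0738 or 0.0618. Tdgf1 was among the 16 (−1.21, adjusted p = 0.0493) and passed in 7 of 29, with adjusted p from 0.0115 to 0.967. At E7.5 Tdgf1 was 297, 194, 16.7, 0 and 12.7 CPM in the Foxa2-positive sums of libraries 1, 2, 3, 4 and 7. The Foxa2-negative sums held 60.6, 60, 17.1, 11.1 and 5.75 CPM, so it was higher on the Foxa2-positive side in libraries 1, 2 and 7.

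Among the 16 were Emb, Cldn6 and Fgf5, which were named after their values were seen. Emb, which encodes the membrane glycoprotein embigin, was 835 ± 184 against 685 ± 95.8 CPM at E6.75 and 2440 against 553 CPM at E7.5 (interaction −1.90, edgeR adjusted p = 1.06e-07). Cldn6, a claudin gene, had a log2 fold change of −0.18 at E6.75 and 2.06 at E7.5 (interaction −2.23, adjusted p = 2.36e-05). Fgf5 had 0.41 and 2.52 (interaction −2.02, adjusted p = 0.00534).

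**Figure D5:**
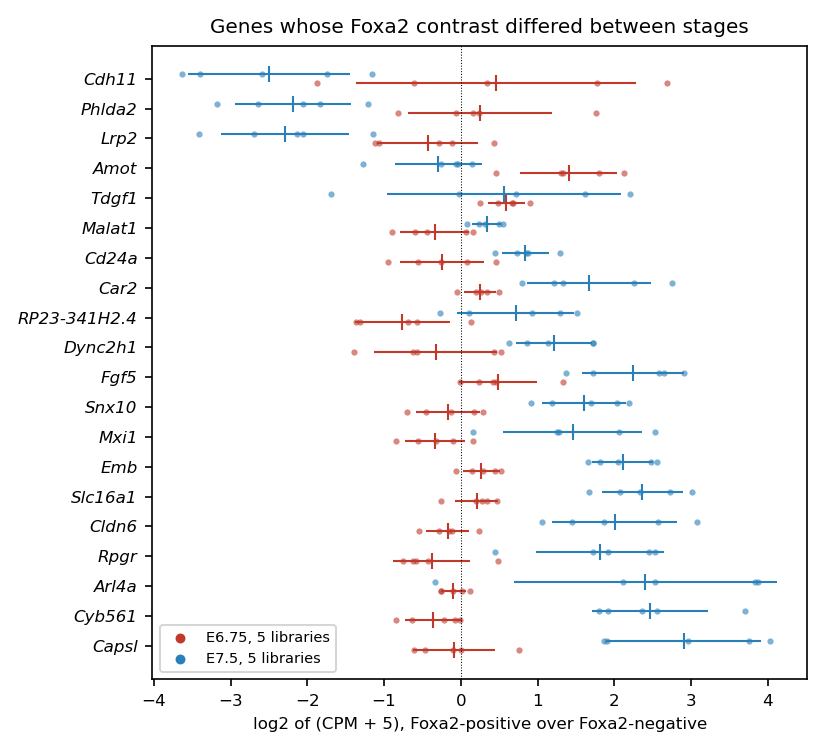
For the 20 genes with a called stage interaction, the log2 ratio of (CPM + 5) in Foxa2-positive over Foxa2-negative sums in each library (points), with the mean and SD (bars), at E6.75 (red) and E7.5 (blue). Most E6.75 ratios lie near 0; Amot lies to the right of its E7.5 values in every library.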

How the data were processed

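Per the series' design text, E6.75 cells were processed by CEL-Seq2 and E7.5 cells by mCEL-Seq2. The authors deposited expected counts, UMI counts per gene and barcode corrected for collisions among 4096 UMI sequences, as found from the values, which were whole UMIs after inversion. bcl2fastq 2.17.1.14 and BWA 0.6.2-r126 are in the submitters' processing notes; genome build, annotation, counting program and use of strand are not given in the sources used here. The 96 used of 192 barcode columns per library were taken from their totals. Of 15 pairs of E6.75 libraries, 10 shared barcode sequences, up to 96. Counts of the 10 pairs among the 5 tested E6.75 libraries differed by more than sampling noise (chi-square 1.67 to 4.36 per degree of freedom). ERCC and mitochondrial rows were left out of depth and tests, expected counts were rounded, and doublets were addressed only by leaving out very deep cells as an alternative.

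Gene positions are from GENCODE (GRCm38) and were matched by symbol. Sums per library and side were tested with edgeR 4.0.16 (TMM, filterByExpr, quasi-likelihood, library as a block) in R 4.3.3, with DESeq2 1.42.0 as an alternative, and the method was tested on simulated data. The members and lists were chosen with earlier results of these data known. The text names up to 15 called genes per direction, called list members and up to 4 further members of a list with most transcripts, T and Foxa2, and up to 5 genes per interaction; genes just short of the threshold, genes below the filter and single-cell values were named after their values were seen. The values of 1 list member are not reported here.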

Additional observations from a re-analysis of the deposited data

Results flagged for a closer look

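Within groups of 5 libraries, 39 were checked for a library far from the others, and 4 stood apart; chance gives about 1 in 20. In Foxa2-positive sums library 2_14 was far highest for Gsc (179 CPM), Lhx1 (450 CPM) and Bmp7 (49.3 CPM), and library 2_9 far lowest for Axin2 (32.8 CPM).

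The Foxa2 contrast differed between E6.75 and E7.5 by the interaction test (edgeR) for Cdh11 (4.26), Capsl (−3.95), Cyb561 (−3.66), Arl4a (−2.97), Lrp2 (2.75), Amot (1.64) and Tdgf1 (−1.21), on the log2 scale. In the same order, these genes passed in 19 of 28, 17 of 25, 24 of 26, 21 of 29, 21 of 28, 17 of 29 and 7 of 29 alternatives. Cdh11, Capsl and Cyb561 were below the filter at E6.75 alone and entered with their E7.5 sums, so their differences are a description.

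The barcode columns taken as unused held 0.147%, 0.0335%, 0.121%, 1.05%, 0.203% and 0.0776% of the transcripts of libraries 1_10, 1_11, 2_12, 2_13, 2_14 and 2_9. Their part in the results was not tested.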

How the results depend on the processing

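The number of genes called between the sides at E6.75, 3 as reported, was 50 with no filter on low counts, 8 with the looser filter, and 17 or 5 with the looser filter and without extraembryonic marker cells or the Lhx1-rich cell. It was 0 without the replicate block, 14 for libraries with title prefix 2 only, 24 or 19 for at least 2 or 5 Foxa2 transcripts, and 40 without cells holding any Ttr, Apoa1 or Spink1. It was 1 after thinning to 10000 before gating (2 libraries) and 0 of 238 genes after thinning each cell to 2000 before summing. Leaving out 1 library gave 1 to 27, 14 without 1_10, 7 without 2_12, 5 without 2_13, 1 without 2_14 and 27 without 2_9. The fit without 1_10 is the same as that of title prefix 2 only, here and in both interactions. The interaction with T, 0 as reported, gave 14 with no filter and 17 without the visceral endoderm filter. The interaction with stage, 20 as reported, gave 98 with no filter, 5 without the block, 12 at 10000 transcripts per cell, 10 at 2 Foxa2 transcripts, 6 and 4 after thinning to 10000 and 2000, 4 without Ttr, Apoa1 or Spink1, 46 with Mesp1 kept, 10 without Xist and 10 at 2 T transcripts; without 1 library it gave 14 to 33, with 32 and 33 without E7.5 libraries 1 and 7. The E7.5 contrast, 69 as reported, gave 406 with no filter, 198 with the looser filter, 28 without the block, 16 and 8 after thinning, 1 without Ttr, Apoa1 or Spink1, 151 with Mesp1 kept and 120 at 5 Foxa2 transcripts; without 1 library it gave 44 to 107, with 44 and 107 without libraries 2 and 7. Thinning before gating left 2 libraries at E6.75 and reversed the depth difference (−0.20) and the mitochondrial one (0.31 percentage points), and keeping Mesp1 reversed Lhx1 (−0.39). Except for counts from fewer genes or libraries, the cause was not tested. The alternatives at 5 Foxa2 transcripts, at 2 T transcripts and with Xist, extraembryonic cells, the Lhx1-rich cell and the looser filter were chosen after seeing the data. Sums rest on as few as 3 cells a side, which limits genes of low abundance. No paired analysis beyond the library block was possible because the stages share no replicate numbers.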

Other observations

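Library 1_11 entered no test. Its 14 Foxa2-negative streak cells held 5.2 CPM of Apln, 101 CPM of Amot and 513 CPM of Tdgf1. Its single Foxa2-positive cell held 2, 3 and 3 transcripts of these genes among 42057, or 47.6, 71.3 and 71.3 CPM. Apln was thus higher, and Amot and Tdgf1 lower, in that 1 cell. Neither Mixl1, Gsc nor Lhx1 had a transcript in that cell.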
